A study of Mus musculus with 6 samples.

Results

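The RNA-binding protein gene Qk and 9 other regulators of splicing (Khdrbs1, Khdrbs3, Sf1, Mbnl1, Mbnl2, Mbnl3, Rbfox2, Esrp1 and Esrp2) were followed in mouse embryonic stem (ES) cell clones that carry an inducible human gene. Every probe set to which the array's annotation gives 1 of these symbols and no other was taken, which was 38 of the 45037 probe sets and 10 of the 18193 genes with a probe set of their own. Qk was chosen from these same data for its low level in clone A3, so its difference between clones is described here without a test. Induced cultures had been sampled 24 hours after tetracycline was removed from the medium, and uninduced cultures at 0 hours, with tetracycline still present. Each of the clones A3, A4 and A5 gave 1 array in either state, 6 arrays in all. All of them derive from the ES line EB3. They carry the human GTF2IRD2 coding sequence with a FLAG epitope tag, under a promoter that tetracycline represses, at the ROSA26 locus. The GTF2IRD2 insert printed in the paper's supplement is far shorter than the GTF2I insert printed there. Each line is 1 clone and none of the arrays comes from cells without the transgene, so what distinguishes a clone from the parental line was not measured.

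Quaking, the product of Qk, belongs to the STAR family of proteins, which bind RNA through a single KH domain. It is best known for the myelin defect of the quaking mouse and regulates alternative splicing, RNA stability and circular RNA formation. Sam68 (Khdrbs1) and its relative SLM2 (Khdrbs3) are STAR proteins as well, and Sf1, a more distant relative, recognizes the branch point sequence when the spliceosome assembles. Muscleblind proteins (Mbnl1, Mbnl2 and Mbnl3) favour the splicing patterns of differentiated tissues over those of ES cells, Rbfox2 binds a short motif beside alternative exons, and Esrp1 and Esrp2 maintain epithelial splicing patterns. The arrays measured RNA levels of these genes and give no splicing ratio.

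Array medians (log2) ran from 5.03 to 5.06 and correlations between arrays from 0.996 to 0.998. The robust multiarray averaging behind these values equalizes the arrays' distributions, so alike medians were built in. The poly-A spike controls averaged 6.91, 6.51 and 6.57 in the induced cultures of A3, A4 and A5, and 6.58, 6.42 and 6.06 in the uninduced ones. They were highest in A3 in both states, and the bearing of this on the clone differences was not tested. The 10 ES cell markers, among them Pou5f1 (clone means of 12.56 for A3, 12.63 for A4 and 12.54 for A5) and Nanog (11.85, 12.01 and 11.92 in the same order), had levels between 9.83 and 13.88. Endoderm markers lay between 4.02 and 4.95, where 25% of all probe sets lay below 3.63 and 75% below 7.31. Mouse Gtf2ird2 measured 6.38, 6.51 and 6.37 in the induced cultures of A3, A4 and A5, against 6.33, 6.04 and 6.36 in the uninduced ones. The inserted sequence is human, so this mouse probe set need not detect it, and the arrays do not check the induction. The paper checked it by RT-PCR, where the transgene's RNA was higher after tetracycline removal in each of A3, A4 and A5. In those RT-PCR values A3 had the highest level of the transgene in the induced and in the uninduced state. The 3 cultures of a state are 3 clones, so p-values of the main induction test measure the spread among these clones and cultures. In the test for differences between clones, p-values rest instead on how far arrays of the same clone disagree, with induction allowed for.

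The promoters of Qk and of Mbnl2, the regulator whose clone difference lay nearest the threshold, are shown because the data turn on the levels of these genes. RefSeq promoter sequences (GRCm38.p6, from 250 bases before to 50 after the annotated start, 300 bases in all) were held for 5 of the 10 genes. Capitals mark GC boxes (GGGCGG) and CCAAT boxes (CCAAT), on either strand, and TATA boxes (TATAAA) were also searched.
Qk, chr17:10319312-10319611, minus strand: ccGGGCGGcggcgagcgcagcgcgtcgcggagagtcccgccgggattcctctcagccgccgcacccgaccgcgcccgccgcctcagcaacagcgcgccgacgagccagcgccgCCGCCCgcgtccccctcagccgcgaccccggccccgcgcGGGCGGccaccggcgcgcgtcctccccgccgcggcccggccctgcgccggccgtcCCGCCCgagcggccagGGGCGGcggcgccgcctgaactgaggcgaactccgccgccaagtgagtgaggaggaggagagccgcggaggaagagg
Mbnl2, chr14:120275419-120275718, plus strand: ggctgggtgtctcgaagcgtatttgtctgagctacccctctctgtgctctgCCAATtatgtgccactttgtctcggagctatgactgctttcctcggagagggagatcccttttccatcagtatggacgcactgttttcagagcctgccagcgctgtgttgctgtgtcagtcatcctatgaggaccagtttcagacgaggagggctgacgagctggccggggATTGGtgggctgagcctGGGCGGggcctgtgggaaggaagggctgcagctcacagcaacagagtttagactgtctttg
The Qk window held 57 CG dinucleotides and was 81.7% G or C. The median of all 32851 promoters in the table was 7 CG dinucleotides, and 99.9% of them held fewer than Qk. It had 5 GC boxes, a motif found in 35.7% of promoters, and neither a CCAAT box (37.4% of promoters) nor a TATA box (13.6%). The Mbnl2 window held 10 CG dinucleotides, 1 GC box and 2 CCAAT boxes. These matches describe the letters only.

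All 7 Qk probe sets had their lowest clone mean in A3. For each of them both A3 arrays lay below all 4 arrays of A4 and A5, an order that 13.5% of all probe sets showed. Since Qk was picked for this pattern, that share is given for scale only. The brightest probe set, 1451179_a_at, measured 10.72 induced and 10.69 uninduced in A3, against 10.97 and 10.98 in A4 and 11.05 and 11.05 in A5. Thus A3 lay 0.31 ± 0.071 below the mean of A4 and A5 (log2, SE of the fit, 6 arrays), which is 1.24-fold. The probe set 1429318_a_at measured 9.26 and 9.29 in A3 (induced, then uninduced), against 9.81 and 9.58 in A4 and 9.69 and 9.85 in A5, where A3 was 1.37-fold lower.

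The largest clone difference of Qk was that of 1417073_a_at. It measured 6.81 and 6.82 in A3 (induced, then uninduced), against 8.45 and 8.36 in A4 and 8.54 and 8.69 in A5. The A3 mean was 1.70 ± 0.080 below the mean of A4 and A5, or 3.24-fold, and the range of its clone means, 1.80, was the 12th largest on the array. Next came 1429735_at with 4.84 and 5.06 in A3, against 5.96 and 6.09 in A4 and 6.11 and 6.30 in A5, a 2.24-fold difference. In these probe sets the gap between A3 and the other clones exceeded the gap between induced and uninduced arrays of every clone. The other 3 probe sets were dim. Clone means of 1429736_at were 4.70 for A3, 5.18 for A4 and 5.29 for A5. Those of 1441964_at were 4.07, 4.54 and 4.62 in the same order of clones, and those of 1425597_a_at were 3.71, 4.24 and 4.05. A4 and A5 differed from each other by at most 0.21 in any Qk probe set.

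**Figure D1:**
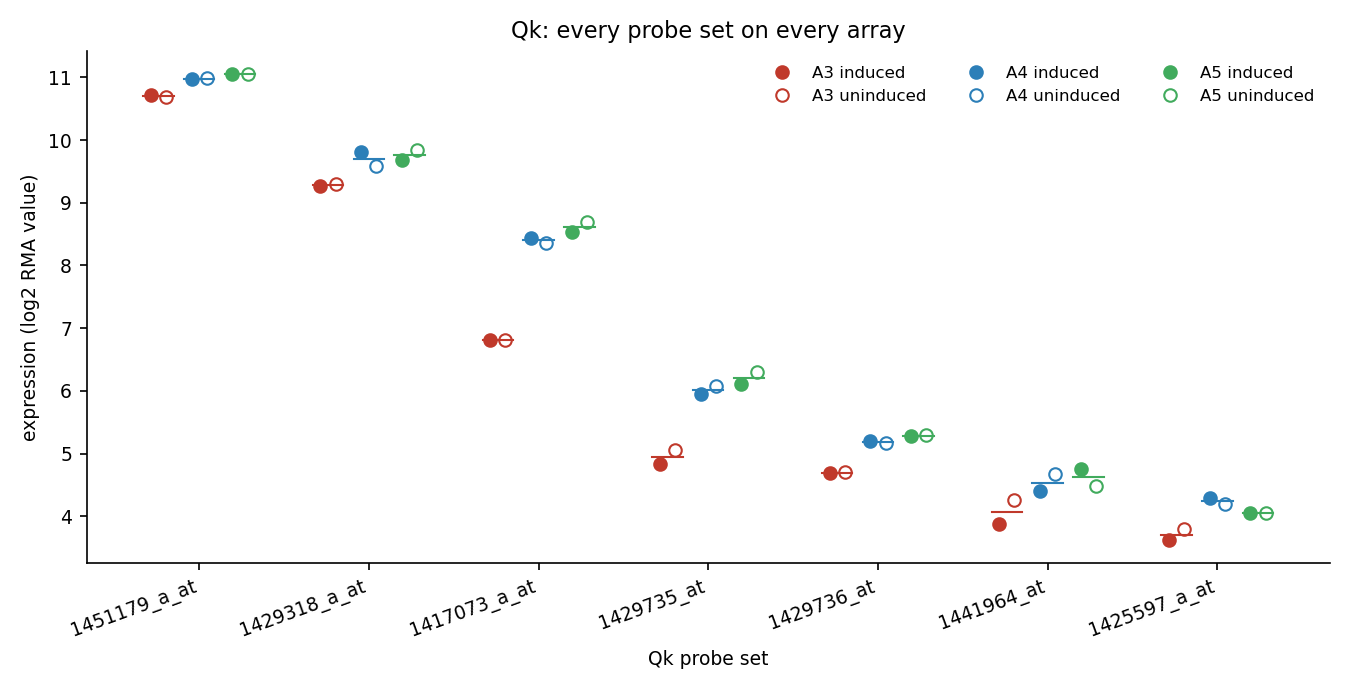
Expression of Qk (log2 RMA value, vertical axis) for its 7 probe sets (horizontal axis) on all 6 arrays. Filled points are induced and open points uninduced cultures, short lines are clone means, and both A3 points lie below the other 4 for every probe set, most widely for 1417073_a_at (clone means of 6.81 for A3, 8.40 for A4 and 8.62 for A5).

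The shortfall in A3 thus ranged from 1.24-fold to 3.24-fold over probe sets of a single gene. Within an array, the value of 1451179_a_at minus that of 1417073_a_at was 3.91 induced and 3.87 uninduced in A3, against 2.52 and 2.62 in A4 and 2.52 and 2.35 in A5. The pair was the brightest Qk probe set and the one with the largest range of clone means. That this difference was larger in both A3 arrays than in the other 4 was therefore built into the choice. It is given as a description only. The target sequences of the 2 probe sets carry the accessions AF090403 and NM_021881. Where in the Qk transcripts each probe set lies is not stated in the tables used here, so their unequal differences could not be assigned to a transcript form.

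The 9 other regulators gave no call in the clone test. Unlike Qk they were not chosen for a clone difference, but they were listed with earlier results of these data known. Of their 31 probe sets, 0 passed a moderated F-test of the clone term (limma, adjusted p under 0.05 over all probe sets), where 2.18% of all probe sets did, and 8 had an unadjusted p under 0.05 (15% of all probe sets). Their clone means spanned a median of 0.15, as did those of all probe sets (0.14), against 0.55 for Qk. Both A3 arrays lay below the other 4 in 1 of the 31 (13.5% of all probe sets) and above them in 6, namely 3 of Rbfox2, 2 of Mbnl2 and 1 of Esrp1 (12.1% of all probe sets).

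Among the STAR relatives, Khdrbs1 was bright and even. Its probe set 1434541_x_at measured 11.22 and 11.12 in A3 (induced, then uninduced), against 11.09 and 11.11 in A4 and 11.20 and 11.28 in A5. The clone means of its 7 probe sets spanned between 0.066 and 0.18, and in none did the A3 arrays stand apart. Khdrbs3 has a single probe set, 1453317_a_at, with clone means of 7.94 (A3), 7.85 (A4) and 8.12 (A5) (adjusted p = 0.281, limma F-test). Its highest clone was A5, not A3.

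Sf1, which binds the branch point, was alike in the 3 clones. The means of 1459765_s_at were 12.77 for A3, 12.76 for A4 and 12.83 for A5, and those of 1423751_at were 6.49, 6.48 and 6.48. Ranges of clone means over its 5 probe sets did not exceed 0.15.

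The muscleblind genes differed among themselves. Mbnl2 was highest in A3 by 1433754_at, which measured 6.32 and 6.45 in A3 (induced, then uninduced), against 5.89 and 5.97 in A4 and 5.99 and 5.82 in A5. A3 lay 0.46 ± 0.086 above the mean of A4 and A5, with an adjusted p of 0.0743 in the F-test, and the A3 arrays did not overlap the others. A second Mbnl2 probe set, 1455827_at, was likewise higher in both A3 arrays (clone means of 6.54 for A3, 6.29 for A4 and 6.24 for A5; adjusted p = 0.189, limma). The brightest, 1436858_at, was not, at 6.59 for A3, 6.65 for A4 and 6.39 for A5. Probe sets of Mbnl2 therefore did not share a direction. Mbnl1, by 1416904_at, was the 1 probe set of these genes lower in both A3 arrays (6.00 for A3, 6.32 for A4 and 6.25 for A5; adjusted p = 0.206, limma). Mbnl3 was even, at 6.35 for A3, 6.29 for A4 and 6.32 for A5 by 1422836_at.

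Rbfox2, which binds beside alternative exons, had its highest clone mean in A3 in all 4 probe sets. Its brightest, 1418245_a_at, measured 9.02 and 9.03 in A3 (induced, then uninduced), against 8.67 and 8.81 in A4 and 8.84 and 8.69 in A5. The A3 arrays did not overlap the others, but the adjusted p was 0.285 (limma F-test). Of the epithelial regulators, Esrp1 (1454681_at) measured 8.76 and 8.67 in A3 and 8.66 and 8.60 in A4, against 8.26 and 8.31 in A5. It was A5 that lay apart there, with an adjusted p of 0.0774 in the F-test. Esrp2 was even, at 6.29 for A3, 6.25 for A4 and 6.26 for A5 by 1433683_at.

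The calls for Mbnl2 and Esrp1 depended on the fit. When the prior variance followed the intensity, 2 of the 31 probe sets passed, Esrp1 1454681_at (adjusted p = 0.00625, limma) and Mbnl2 1433754_at (0.0219). When the test was limited to probe sets averaging 5 or more, the same 2 passed, with adjusted p of 0.0219 and 0.0242.

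**Figure D2:**
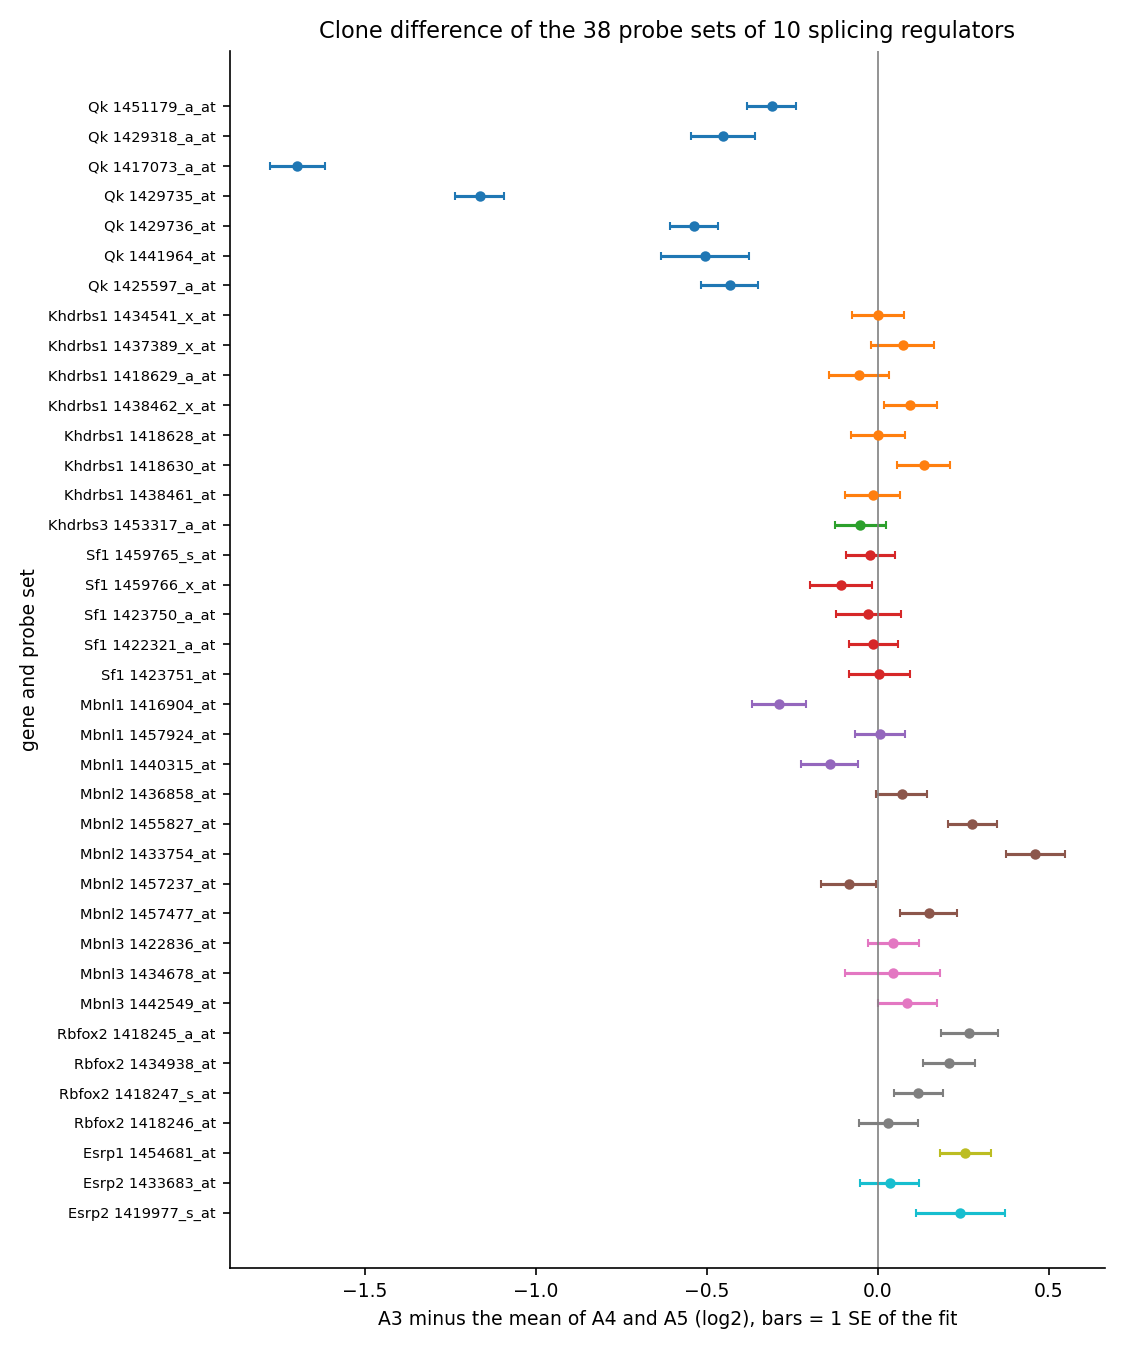
A3 minus the mean of A4 and A5 (log2, horizontal axis) for the 38 probe sets, by gene, with bars of 1 SE of the fit. The 7 Qk probe sets lie between -1.70 and -0.31, and the 31 of the other regulators between -0.29 and 0.46.

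Induction of human GTF2IRD2 was the comparison the study was built for, and none of the 10 genes changed detectably with it. Of the 38 probe sets, 0 passed the threshold (limma, adjusted p under 0.05), 0 had an unadjusted p under 0.05, and 0% of all 45037 probe sets passed, of which 1404 had an unadjusted p under 0.05. Mean differences, induced minus uninduced, ran from -0.18 to 0.15 with a median of 0.0056, against a median of -0.0037 over all probe sets. They were positive in 22 and negative in 16. The sign was the same in all 3 clones for 9 of them, 3 higher and 6 lower, where 25.9% of all probe sets had 1 sign throughout.

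With the clone as a block, 0 of the 38 passed as well, and 1 had an unadjusted p under 0.05. This was Qk 1429735_at, at 4.84, 5.96 and 6.11 in the induced cultures of A3, A4 and A5, against 5.06, 6.09 and 6.30 in the uninduced ones. It was lower in all 3 clones, with differences of -0.22 (A3), -0.13 (A4) and -0.18 (A5), but its adjusted p was 0.843 (limma with the block). No other Qk probe set had 1 sign in all 3 clones, and the mean differences of the 7 were positive in 3 and negative in 4. Induced cultures averaged 7.93 ± 0.97 and uninduced ones 7.96 ± 1.00 for 1417073_a_at (SD, n = 3 each), a difference of -0.027 with a 95% interval of -0.20 to 0.15 when the clone was the block. Over the 38 probe sets these intervals reached at most from -0.40 to 0.35.

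The brightest probe set of each other gene gave small differences in induced against uninduced cultures. They were 0.00068 for Khdrbs1, 0.011 for Sf1, 0.012 for Mbnl3 and 0.00083 for Rbfox2. Esrp1 differed by 0.041, Mbnl1 by 0.031 and Esrp2 by -0.028. Khdrbs3 differed by -0.066 and was lower in all 3 clones, and Mbnl2, by 1436858_at, differed by 0.12 and was higher in all 3, with 0.14 (A3), 0.045 (A4) and 0.17 (A5). None passed the test.

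**Figure D3:**
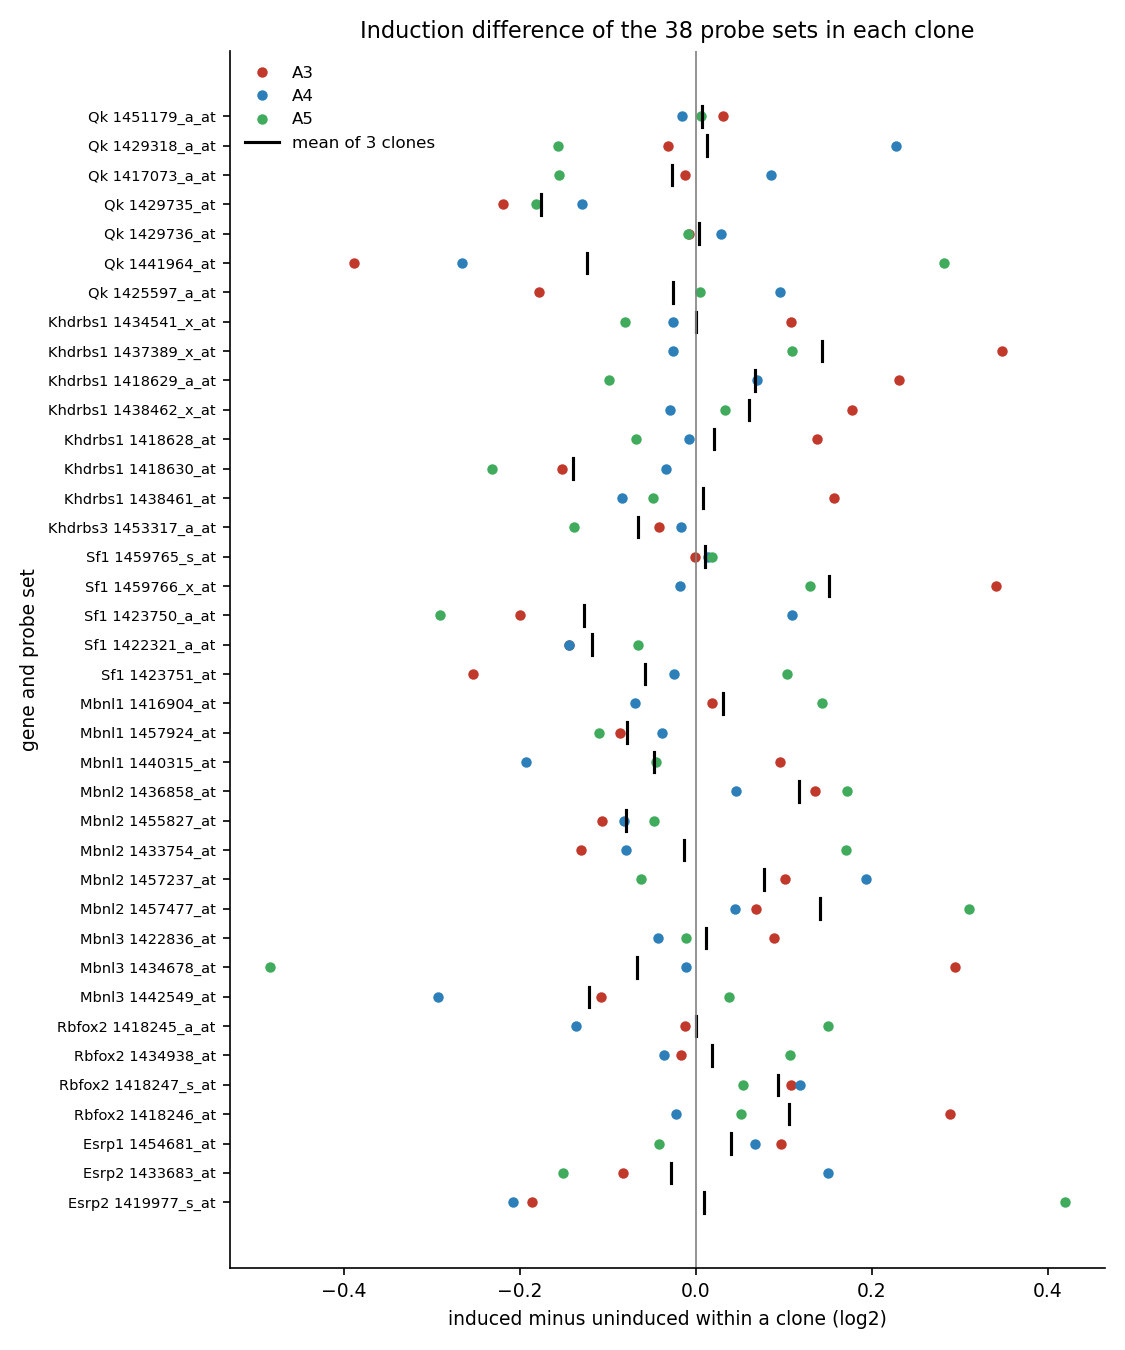
Induced minus uninduced (log2, horizontal axis) within each clone for the 38 probe sets, by gene. Coloured points are the clones A3, A4 and A5, and black bars their mean, which stays between -0.18 and 0.15. Points of different clones fall on both sides of 0 for 29 of the 38.

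Other genes of the splicing machinery were read from lists, of which 1 probe set per gene, that with the highest mean, was used. Induction called 0 genes of every list. In the clone test 1 of 26 measured splicing regulators passed (2.18% of all probe sets passed), namely Rbm47, an RNA-binding protein known as a cofactor of APOBEC1 in RNA editing. Its means were 7.20 for A3, 7.89 for A4 and 7.82 for A5 (adjusted p = 0.0127, limma F-test). The list's median for A3 minus the mean of A4 and A5 was -0.11, against -0.0084 over all probe sets. In A3, 20 of the 26 lay below the mean of A4 and A5 and 6 above it. Of 10 branch site and 3′ splice site factors, which act beside Sf1, Sf3b3, a subunit of the U2 particle, passed. Its means were 11.06 for A3, 10.49 for A4 and 10.78 for A5 (adjusted p = 0.0295). U2af1, U2af2 and Sf3b1 did not pass. Without both A3 arrays neither gene passed, but that fit compares only A4 with A5 and cannot check a difference of A3. Without both A4 arrays Sf3b3 did not pass (adjusted p = 0.223, limma F-test).

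RNAs described as bound or regulated by quaking, in the nervous system, muscle or vessels, gave 0 calls among 11 measured genes (2.18% of all probe sets were called). At that share so short a list need not hold a call, and only 8 of the 11 averaged 5 or more. Over all 11 the median for A3 minus the mean of A4 and A5 was -0.024, with 5 genes higher and 6 lower in A3. Map1b, a microtubule-associated protein, came closest, with 7.66 for A3, 7.14 for A4 and 7.18 for A5 (adjusted p = 0.0828). Cdkn1b, the cell cycle inhibitor p27, was at 7.57, 7.66 and 7.66. The myelin gene Mbp was at 5.72, 5.63 and 5.75.

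Markers of other cell types were compared between clones as well, where 2.18% of all probe sets passed the F-test. Of 11 epithelial markers, Krt18 passed, lower in A3 (6.53 for A3, 7.07 for A4 and 7.11 for A5; adjusted p = 0.0469), while Cdh1, the epithelial cadherin, was level at 11.17, 11.17 and 11.11 and Epcam, an epithelial adhesion molecule, stood at 11.02, 10.72 and 10.63 without passing. A3 was above the mean of A4 and A5 in 6 of the 11 and below it in 5, with a median of 0.0044. Of 10 mesenchymal markers, Snai1 passed, higher in A3 (5.66, 5.17 and 5.25 in the same order; adjusted p = 0.0436), and the median was 0.065, with 7 of the 10 higher in A3. Of 10 ES cell markers Fgf4 passed, higher in A3 (10.16, 9.65 and 9.69), whereas 8 of the 10 lay below the mean of A4 and A5 and the median was -0.070. Des among 6 muscle markers and Eomes among 5 trophoblast markers passed, lower in A3. All other members of these 2 lists were lower in A3 without passing (medians of -0.095 and -0.19). None of 7 neural and glial, 6 fibroblast and 5 endoderm markers passed, although all 5 endoderm markers were lower in A3 too (median of -0.082). Many of these genes were dim, since 3 of 6 muscle, 2 of 5 trophoblast and 0 of 5 endoderm markers averaged 5 or more. The mean over the mesenchymal list was 6.57 and 6.52 in A3, against 6.36 to 6.45 in the other 4 arrays, and over the trophoblast list 4.68 and 4.81 in A3, against 4.89 to 5.11. In bulk samples fewer cells of a type and less RNA per cell cannot be told apart, and the part of such shifts in the Qk values was not tested.

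The genes beside Qk on chromosome 17 differed by side. The 5 nearest protein-coding genes with a probe set of their own were taken on either side in the RefSeq gene order. On the side before Qk, toward lower coordinates (Prr18, T2, Pde10a, 1700010I14Rik and Pabpc6) 0 of 12 probe sets passed the F-test of the clone term, but 9 of them averaged below 5. On the side after Qk 8 of 10 passed, against 2.18% of all probe sets. All 8 averaged 5 or more. They belong to Agpat4, an acyltransferase of phospholipid synthesis (both probe sets), Map3k4, a kinase upstream of p38 and JNK (all 4), and Igf2r, the receptor that clears insulin-like growth factor II (both). All 8 were lower in A3. Igf2r (1424112_at) measured 6.02 and 6.10 in A3 (induced, then uninduced), against 6.99 to 7.04 in the other 4 arrays (adjusted p = 0.0024, limma F-test). Map3k4 (1459800_s_at) measured 7.77 and 7.99 in A3, against 8.64 and 8.62 in A4 and 8.67 and 8.64 in A5 (adjusted p = 0.00917). Plg and Slc22a2, at means of 4.29 and 3.41, did not pass. Of the 10 probe sets, 0 passed when both A3 arrays were left out. That fit compares only A4 with A5, so it cannot check a difference of A3. Fewer than 8 passed when either A3 array alone was left out, which leaves that clone a single array.

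How far this stretch runs was examined after these values had been seen, so it is described without a test. Protein-coding genes that averaged at least 5 (11523 genes, 1 probe set each) were put in order along their chromosomes. The stretch is given as 40 genes, which are the bins of 20 genes with the lowest medians. Its length was thus chosen from the values it describes. Of the 40 such genes that follow Qk, all 40 had a lower mean in A3 than the mean of A4 and A5, and in 36 both A3 arrays lay below the other 4, an order shown by 19.6% of all 11523 genes. The median difference was -0.67, a 1.60-fold lower level in A3, and 31 of the 40 were lower by 0.5 or more, a size reached by 1.63% of all genes placed. It was -0.69 in the induced and -0.67 in the uninduced cultures. A4 minus A5 had a median of 0.0072 over the same 40 genes.

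The stretch holds genes of varied function. Phf10, a subunit of BAF-type chromatin remodellers (1449085_at), measured 9.66 and 9.59 in A3 (induced, then uninduced), against 10.58 and 10.62 in A4 and 10.69 and 10.61 in A5, which is 2.00-fold lower. Psmb1, a proteasome subunit, was 1.84-fold lower in A3, Wtap, a subunit of the RNA methyltransferase complex that also bears on splicing, 1.85-fold, and Tbp, the TATA-binding protein, 1.75-fold. Tcp1, a chaperonin subunit, and Sod2, the mitochondrial superoxide dismutase, were 1.60-fold and 1.59-fold lower. The zinc finger gene Zfp53 differed most, at -1.16. Only Dll1 (-0.059), Has1 (-0.032), Zfp945 (-0.17) and Zfp13 (-0.066) among the 40 had A3 arrays that overlapped the others.

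On either side of the stretch the values were nearer to 0. The 19 genes placed before Qk had a median of -0.10 and none was lower in A3 by 0.5 or more. However, 13 of the 19 were lower in A3. Both A3 arrays lay below the other 4 in 7 of the 19, an order shown by 19.6% of all genes placed. Beyond the 40, the next 20 genes had a median of -0.0026, though the end of the stretch was chosen from these same values. Qk thus stood at 1 edge, and its brightest probe set (-0.31) lay between the medians of the 2 sides. The values of the 2 sides overlapped (-0.45 to 0.25 before Qk and -1.16 to -0.032 after it). Qk 1417073_a_at (-1.70) exceeded in size the brightest probe set of every gene of the stretch, but it is the most extreme of 7. These are unlike terms, since in Phf10 too a dimmer probe set, 1435774_at, differed more (-1.22) than the brightest. The arrays measure RNA alone, and the cause of the shared difference was not tested.

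**Figure D4:**
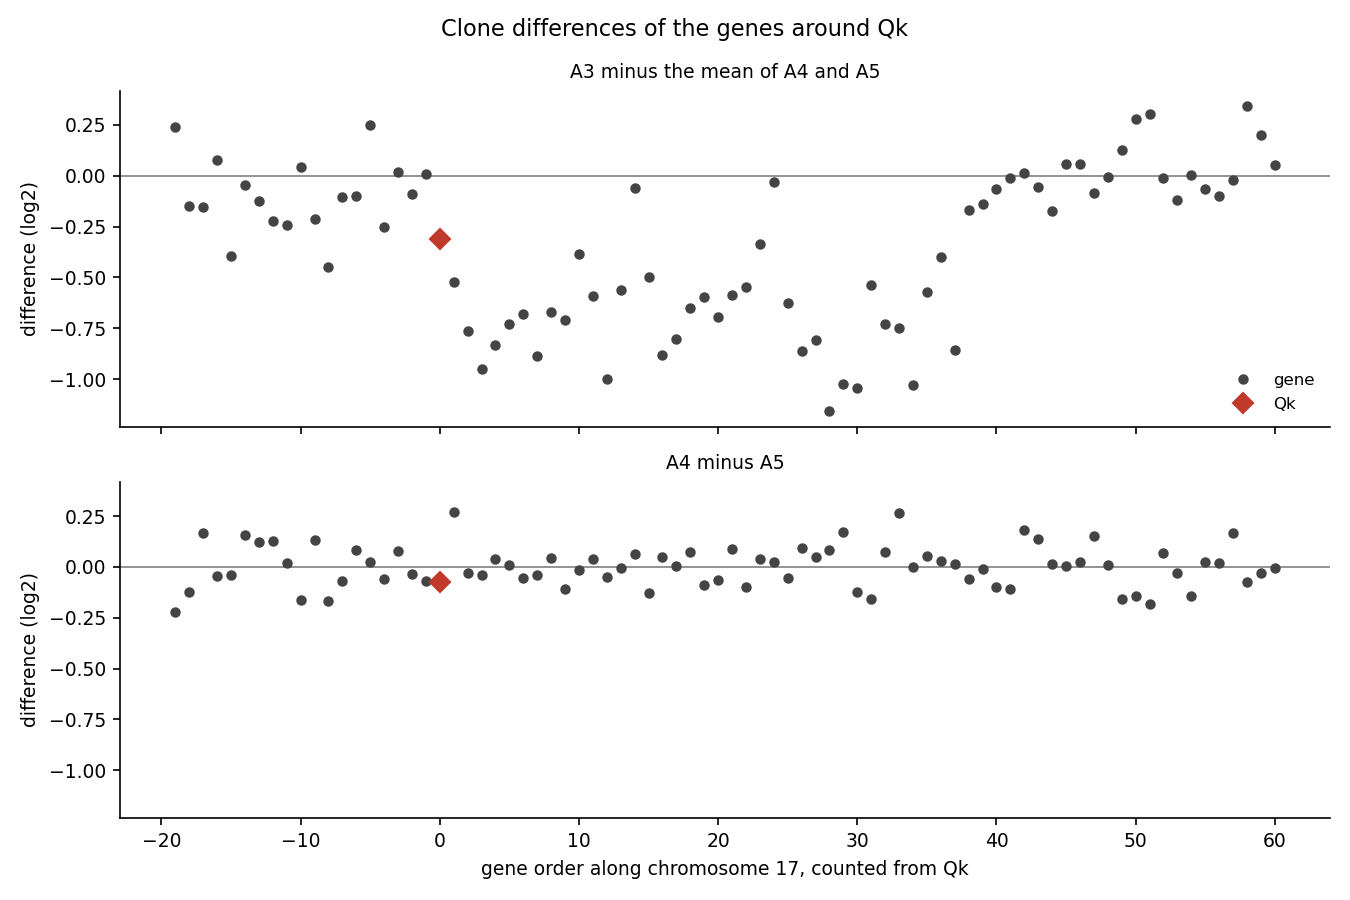
Clone differences (log2, vertical axis) of single genes in their order along chromosome 17, counted from Qk (horizontal axis, in genes), with A3 minus the mean of A4 and A5 above and A4 minus A5 below. Each point is 1 gene by its brightest probe set and the diamond is Qk. The 40 genes after Qk have a median of -0.67 above and 0.0072 below.

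In bins of 20 consecutive genes along every chromosome, the 2 bins after Qk had medians of -0.69 (Agpat4 to Rgmb) and -0.61 (Gm38396 to Zfp13). The other 563 bins lay between -0.23 and 0.16, and the other 26 of chromosome 17 between -0.11 and 0.049. For A4 minus A5 all bins lay between -0.10 and 0.34, the highest being a bin of chromosome 4 (Akr1a1 to Atp6v0b).

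**Figure D5:**
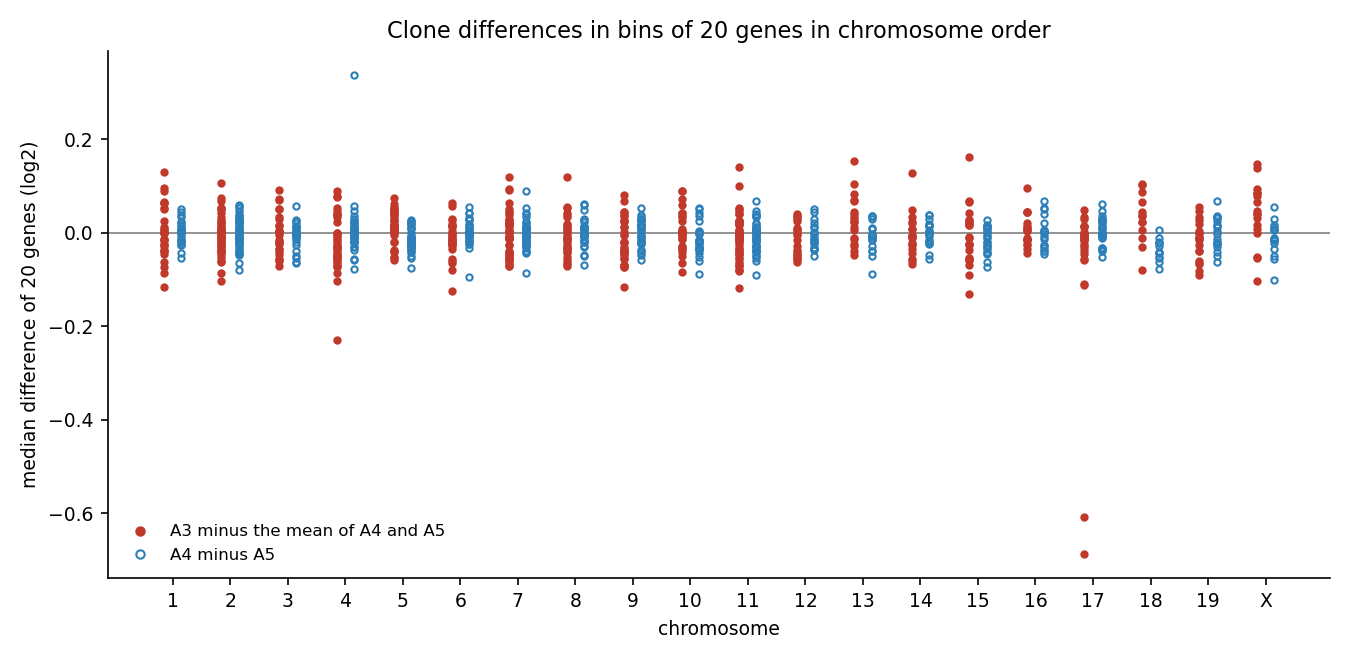
Median clone difference (log2, vertical axis) of 20 consecutive genes, by chromosome (horizontal axis). Each point is 1 of 565 bins, filled for A3 minus the mean of A4 and A5 and open for A4 minus A5. The 2 lowest filled points, at -0.69 and -0.61, are the bins that follow Qk on chromosome 17.

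The genes whose profile over the 6 arrays came closest to that of Qk 1417073_a_at were found by Euclidean distance between centred log2 values. They were Pttg1 (securin, distance 0.388), Ccnd2 (cyclin D2, 0.508), Pkdcc (a secreted kinase, 0.587), Phf10 (0.588) and Cd37 (a leukocyte tetraspanin, 0.626), with Pearson correlations of 0.990, 0.998, 0.955, 0.992 and 0.982 over the 6 arrays. The arrays share clones, so these coefficients describe 3 clones rather than 6 independent samples. Pttg1 (1438390_s_at) measured 9.54 and 9.60 in A3 (induced, then uninduced), against 11.42 and 11.51 in A4 and 11.59 and 11.46 in A5. Ccnd2 (1434745_at) measured 6.77 and 6.82 in A3, against 8.02 and 7.94 in A4 and 8.16 and 8.15 in A5. Each gene is named here by its closest probe set, and others of the same gene could differ. Clone means spanned 1.95 for this Pttg1 probe set and 2.14 for 1424105_a_at, but 0.25 for 1419620_at. They spanned 1.74 for Pkdcc 1454838_s_at and 0.48 for its brighter 1460411_s_at, and 1.26 for Cd37 1419206_at and 0.43 for 1425736_at. The 7 probe sets of Ccnd2 spanned 0.996 to 1.36 and the 2 of Phf10 1.03 to 1.26. Pttg1 lies on chromosome 11, Ccnd2 on 6 and Cd37 on 7, while Pkdcc and Phf10 lie on chromosome 17, Phf10 within the stretch after Qk and Pkdcc 530 placed genes away.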

How the data were processed

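RNA of 6 cultures had been hybridized to Affymetrix whole-genome mouse arrays, and the authors deposited log2 values, 1 per probe set, made by robust multiarray averaging (RMA) in the affy package of Bioconductor. Versions are not given in the sources used here. RMA equalizes the distributions of the arrays, so differences are relative to the bulk of probe sets. Of 45101 probe sets, 64 controls were left out and 45037 tested with limma 3.58.1 in R 4.3.3 (Benjamini-Hochberg adjusted p under 0.05). The annotation gives 1 symbol for 34945, several for 932 and none for 9160.

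Induction was fitted without a block, after the study's t-test of induced against uninduced arrays, and clones by a moderated F-test with induction as covariate. Arrays of the same clone, which share a number, correlated at 0.524, 0.376 and 0.210 after group means were removed, and others at -0.407 to 0.0689, so the clone pairs the samples. All probe sets of the members were accounted for, and those of Qk and the brightest of each other gene are named. From each list up to 4 genes with the smallest p could be named; Pou5f1, Nanog, U2af1, U2af2, Sf3b1, Cdh1, Cdkn1b, Mbp and the genes of the chromosome 17 stretch were picked after their values were seen. Members and lists were chosen with earlier results of these data known. Scripts were tested on simulated data. The alternatives were the block, the study's t-test, other variance priors, an intensity filter, centring and omitted arrays. Precision is limited by the number of arrays.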

Additional observations from a re-analysis of the deposited data

Results flagged for a closer look

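In 3 probe sets of these genes the difference between induced and uninduced cultures had opposite signs in 2 clones, each of at least 0.2 on the log2 scale. The difference between the clones was not tested, since each has 1 culture per state. For Mbnl3 1434678_at the clones ranged from -0.48 in A5 to 0.29 in A3, a spread of 0.78. For Qk 1441964_at they ranged from -0.39 in A3 to 0.28 in A5, a spread of 0.67, and for Esrp2 1419977_s_at from -0.21 in A4 to 0.42 in A5, a spread of 0.63. The Qk and Esrp2 probe sets have means below 5, and no other probe set of Qk, Mbnl3 or Esrp2 was set apart in this way.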

How the results depend on the processing

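Induction called 0 probe sets, and 0 of the 38 of these genes, in every fit tried, among them the replicate block, the study's t-test and each omitted array. The replicate block left the differences as they were and gave no call. Probe sets called in the clone term, 980, became 2641 with an intensity trend, 1885 with the filter on a mean of at least 5, and 26 to 1427 when arrays were left out, lowest without both A3 arrays (248 without the induced and 413 without the uninduced A3 array, 633 without the uninduced A4 array). Of the 31 probe sets of the 9 other regulators, 2 passed with the trend, 2 with the filter and 0 to 1 with arrays left out, Mbnl2 1433754_at passing without both A5 arrays (adjusted p = 0.0377). Rbm47 lost its call without the induced A3 array (0.106) or the uninduced one (0.0872). Sf3b3 lost its call without any single array of A3 or A4.

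The fits with arrays left out had no clone block. Leaving out 1 array thus compared unlike sets of clones, and the ranges below hold the gap between clones as well as induction. Within the clones, Qk 1417073_a_at differed by only -0.013 (A3), 0.086 (A4) and -0.15 (A5). Small induction differences changed sign when single arrays or both arrays of a clone were left out. Their ranges for Qk were -0.10 to 0.10 (1451179_a_at), -0.13 to 0.17 (1429318_a_at), -0.60 to 0.53 (1417073_a_at), -0.55 to 0.22 (1429735_at), -0.17 to 0.19 (1429736_at), -0.33 to 0.11 (1441964_at) and -0.18 to 0.16 (1425597_a_at). For the other genes they were -0.053 to 0.056 (Khdrbs1), -0.14 to 0.029 (Khdrbs3), -0.013 to 0.030 (Sf1), -0.061 to 0.13 (Mbnl1), -0.027 to 0.040 (Mbnl3), -0.085 to 0.093 (Rbfox2), -0.068 to 0.19 (Esrp1) and -0.12 to 0.034 (Esrp2).

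The A3 difference of Qk 1417073_a_at stayed between -1.74 and -1.65 when single arrays were left out, and the median over the 40 genes after Qk, whose alternatives were added after seeing the data, between -0.69 and -0.65. Dim probe sets limit what 3 arrays per state can show: 8 of the 38 had a mean below 5.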
